A study of Mus musculus with 16 samples.

Results

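The comparison described here asks whether the effect of mutant Twinkle on gene expression differed between the hippocampus and the cerebellum of old mice. It uses all 16 arrays of the series, in 4 groups of 4 assigned from the sample titles by genotype and brain region. The first group was hippocampus of mice overexpressing mutant Twinkle, aged 24, 24, 21 and 21 months in order of replicate number, and it was set against hippocampus of wild-type (wt) mice aged 26, 24, 21 and 23 months. The other pair was cerebellum of mutant Twinkle overexpressors, again aged 24, 24, 21 and 21 months, and cerebellum of wild types aged 26, 24, 21 and 23 months. The replicates are labelled as biological, but whether a hippocampus and a cerebellum share an animal is not recorded. The p-values therefore refer to the spread among these arrays. The labels give no strain, sex, promoter or transgenic line. One free-text field places the hippocampus samples in the cerebellum, and the title, the source and the tissue field, which place them in the hippocampus, were preferred.

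Twinkle is the product of Twnk and opens the double strand of mitochondrial DNA ahead of the polymerase. Dominant mutations in it cause progressive external ophthalmoplegia in people, an adult-onset disease in which deleted copies of mitochondrial DNA build up in muscle and brain. Mitochondrial DNA carries genes for a few respiratory chain subunits and for the RNAs that translate them, while the remaining subunits, the mitochondrial ribosome and the replication machinery are encoded in the nucleus. The hippocampus serves memory and is dominated by pyramidal neurons and dentate granule neurons, and the cerebellum serves coordination and is dominated by granule neurons and Purkinje cells.

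The deposited values were on a log scale, taken as log2, and each was relative to the median array of its own region. For that reason no hippocampal level can be set against a cerebellar one, and the labelled tissues could not be checked against their markers, because no expression level is left in the values. What can be compared is the genotype effect, mutant minus wild type, within each region. The regional difference used throughout is the hippocampal effect minus the cerebellar effect, so a positive value means that mutants lay further above wild types, or less far below them, in the hippocampus. There were 18168 genes.

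Some arrays stood apart before any genotype was compared. The mean over 11 markers of cerebellar granule neurons was 2.03 on wild-type hippocampus array 1 and 0.72 on mutant hippocampus array 1, against -0.21 to 0.18 on the other 6 hippocampal arrays. Markers of the choroid plexus, the fluid-secreting tissue inside the ventricles, averaged 2.08 on mutant hippocampus array 4 and -1.40 on mutant cerebellum array 4. Markers of meninges and fibroblasts averaged 1.00 on mutant hippocampus array 1. The poly-A RNA added as a processing control averaged 0.55 and 0.59 on mutant cerebellum arrays 2 and 4 and at most 0.11 on the other 14. The RNA spiked in for hybridisation averaged -0.72 on wild-type cerebellum array 4 and 0.27 on wild-type cerebellum array 3, against -0.18 to 0.16 on the other 14.

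Twnk was read by 1 probe set, with values of 0.03, -0.01, 0.01 and 0.02 in mutant hippocampus and -0.09, -0.11, -0.06 and 0.05 in wild-type hippocampus. In the cerebellum the mutants had -0.0013, 0.01, 0.11 and -0.01 and the wild types -0.01, -0.15, 0.01 and 0.0013. The genotypes overlapped in both regions. The effect was 0.06 in hippocampus and 0.06 in cerebellum, and the regional difference was 0.0009 (SE 0.07, 95% interval -0.15 to 0.15, limma adjusted p = 0.999). Whether this probe set reads the transgene is not given in the sources, so it does not check the genotype labels, and each direction below rests on those labels.

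The regional difference passed the test in 0 of 18168 genes. The smallest limma adjusted p was 0.671, and 972 genes had an unadjusted p under 0.05, which is 5.35% of those tested. Of these 972 genes, 558 lay above 0 (3.07% of all genes) and 414 below it (2.28%). Within each region the genotype effect likewise passed in 0 genes, with an unadjusted p under 0.05 for 1459 genes in hippocampus (8.03%) and for 979 in cerebellum (5.39%). A miss in this test does not show that the regions responded alike, and the intervals say how large a difference could have been missed. The 95% interval of the regional difference lay within 0.25 either side of 0 for 4868 genes (26.8%), within 0.5 for 15999 (88.1%) and within 1 for 17944 (98.8%). Over all genes the median of the regional difference was 0.01 and its median SE was 0.105.

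Effects in hippocampus were spread more widely over genes than effects in cerebellum. Their SD over genes was 0.114 in hippocampus and 0.0902 in cerebellum, and 89 genes differed by at least 0.5 between genotypes in hippocampus, against 11 in cerebellum. The median SD within groups was 0.0986 in hippocampus and 0.102 in cerebellum. Wild-type hippocampus array 1, named above, had an SD of 0.261 over probe sets, while the other 15 arrays had 0.114 to 0.185. The part of this array in the wider spread of effects was not tested. Across genes, which are not independent replicates, effects in the 2 regions had a Pearson r of 0.07 and a Spearman rho of 0.08, and 53.3% of genes had the same sign in both.

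**Figure D1:**
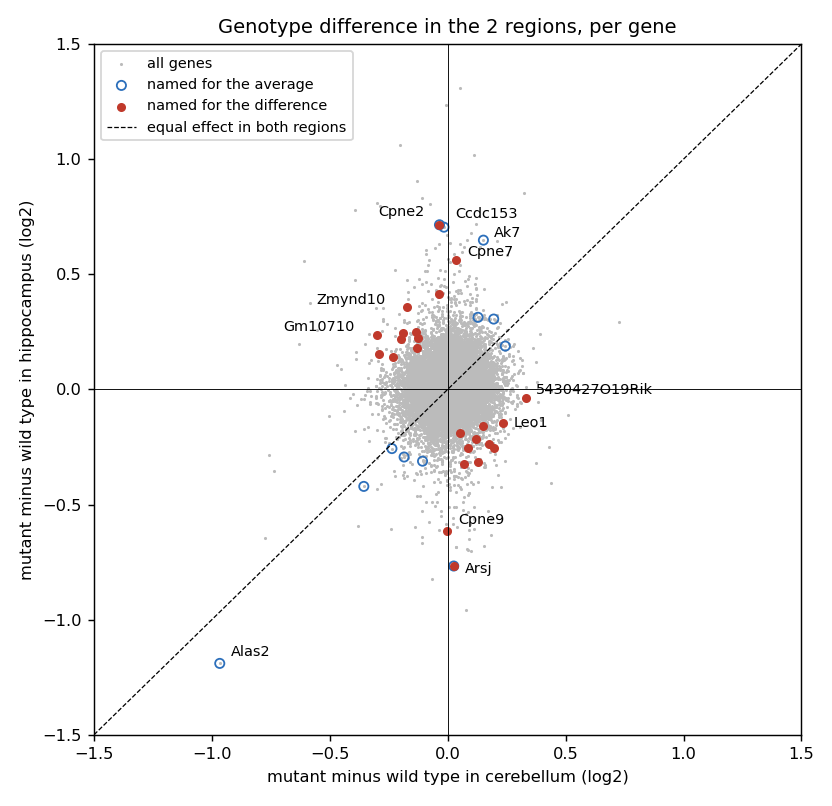
Each point is a gene, placed by its genotype effect in the cerebellum (x axis) and in the hippocampus (y axis), both as mutant minus wild type in log2 units; red points are the genes named for the regional difference, blue rings those named for the average, and the dashed line marks equal effects. The cloud is taller than it is wide (SD 0.114 against 0.0902), Cpne2, Cpne7, Cpne9 and Arsj lie near the vertical axis, and Alas2 lies close to the dashed line at the lower left.

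Genes were named as the 12 of smallest p in each direction, and none of these 24 passed the test (adjusted p from 0.671 to 0.867). Among the 12 genes with a positive regional difference, 11 had effects of opposite sign in the regions, and among the 12 with a negative one 11 did. Ranking by the regional difference favours such genes, so this count is a description. Opposite signs were found in 46.7% of all genes. A stricter count did not use the test: in 15 genes (0.0826% of all) the 4 mutants and the 4 wild types did not overlap in either region and lay in opposite order. Equally, 15 genes (0.0826%) did not overlap in either region and lay in the same order. Non-overlap in 1 region was seen in 864 genes in hippocampus (4.76%) and in 447 in cerebellum (2.46%).

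Gm10710, a predicted gene, had the smallest p. Its values were 0.19, 0.04, 0.11 and 0.12 in mutant hippocampus and -0.23, -0.04, -0.18 and -0.05 in wild-type hippocampus. In cerebellum they were -0.15, -0.05, -0.02 and -0.14 in mutants and 0.02, 0.25, 0.36 and 0.20 in wild types. All mutants were above all wild types in hippocampus and below them in cerebellum, with effects of 0.24 and -0.30 and a regional difference of 0.54 (SE 0.10, 95% interval 0.33 to 0.74, limma adjusted p = 0.67).

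Nrbp2, a pseudokinase of the nuclear receptor binding protein family, followed the same layout. Mutant hippocampus arrays had 0.23, 0.01, 0.25 and 0.10, against -0.02, -0.08, -0.17 and -0.01 in wild types, and mutant cerebellum arrays had -0.10, -0.06, -0.19 and -0.07, against 0.06, 0.09, 0.11 and 0.12 in wild types. The groups were again apart in both regions and in opposite order, and the regional difference was 0.42 (SE 0.08, interval 0.24 to 0.59, limma adjusted p = 0.67). The other genes of this kind with mutants above wild types in hippocampus were 4933430H16Rik (0.43), Gm31679 (0.44), Aloxe3 (0.31), a lipoxygenase best known from the skin barrier, and Slc22a17 (0.33), a receptor for the iron-binding protein lipocalin 2.

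The opposite layout, mutants below wild types in hippocampus and above them in cerebellum, was seen in 9 of the 15 genes. Rad17, which loads the checkpoint clamp at damaged DNA, had -0.03, -0.13, -0.02 and -0.13 in mutant hippocampus and 0.09, 0.14, 0.07 and 0.02 in wild-type hippocampus. In cerebellum the mutants had 0.05, 0.11, 0.02 and 0.15 and the wild types -0.02, -0.07, -0.12 and -0.06. The genotypes did not overlap in either region, and the regional difference was -0.31 (SE 0.07, interval -0.45 to -0.16, limma adjusted p = 0.79). The proteasome ATPase subunits Psmc1 (-0.21) and Psmc5 (-0.13), the dynein-associated protein Nudc (-0.20), the neural adhesion molecule Ncam2 (-0.34), the ADP-ribosyl cyclase Bst1 (-0.24), the zinc finger gene Zfp719 (-0.34), the transporter Slc35f3 (-0.50) and 9130401M01Rik (-0.30) completed it, and none passed (limma adjusted p from 0.671 to 0.867 over the 15). Of the 15 genes, 9 are among the 24 named by p, and the other 6, which are Slc22a17, Psmc1, Psmc5, Nudc, Slc35f3 and 9130401M01Rik, were picked out after their values were seen. The 3 probe sets of Ncam2 differed among themselves, with regional differences of -0.11, -0.13 and -0.76. For Zfp719 and Bst1 the cerebellar groups were barely apart. The lowest mutant was at -0.0033 for Zfp719 and -0.0098 for Bst1, and the highest wild type at -0.0037 and -0.0108. Their cerebellar effects were 0.09 (interval -0.03 to 0.20) and 0.05 (-0.04 to 0.15), against -0.26 and -0.19 in hippocampus.

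**Figure D2:**
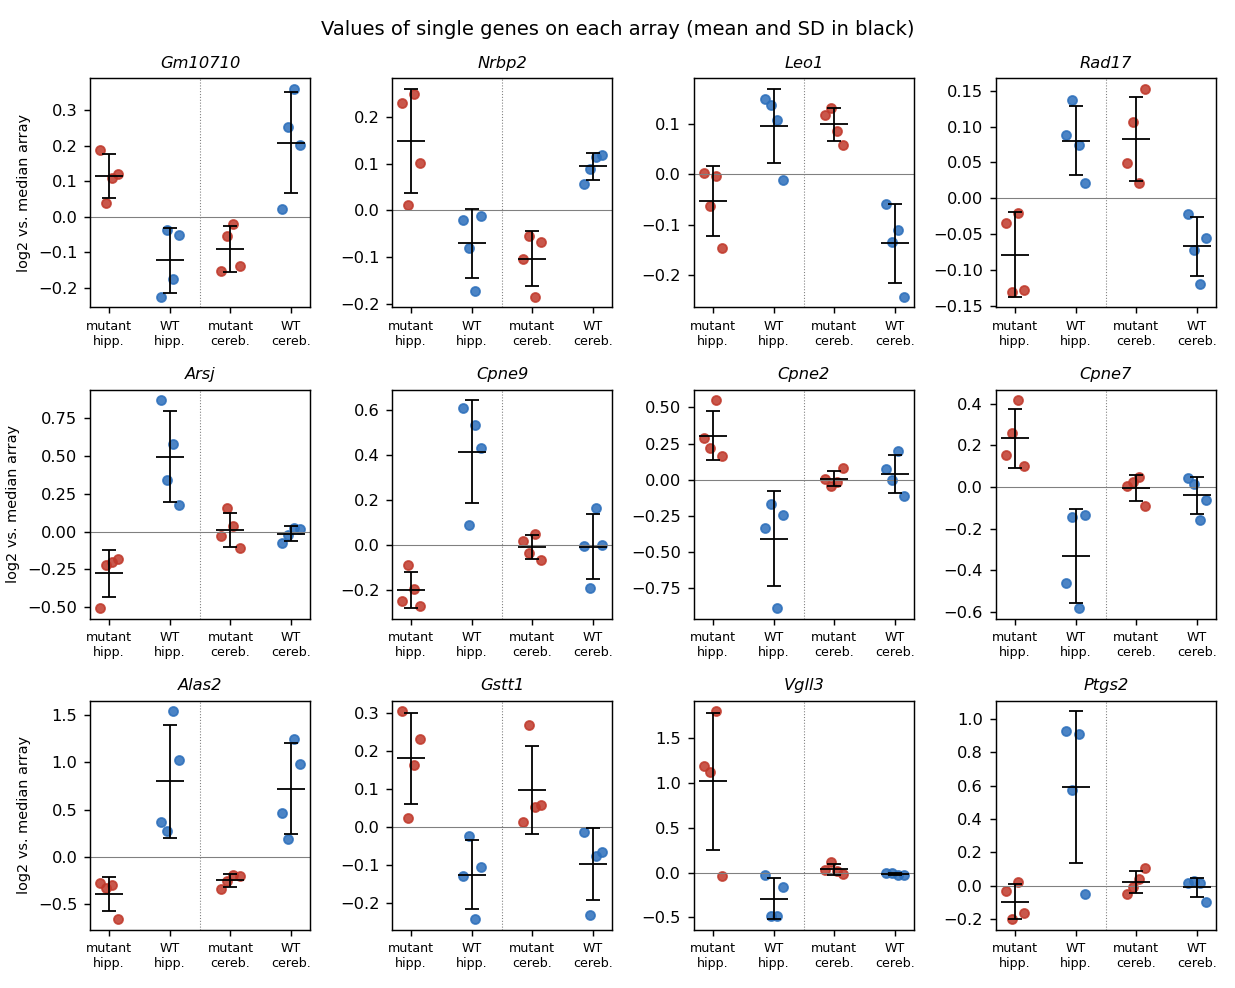
Value of 12 genes on each array (y axis, log2 relative to the median array of the region) for mutant and wild-type (WT) hippocampus and mutant and wild-type cerebellum; points are arrays in order of replicate number, long bars are means and capped bars SD (n = 4). Gm10710, Nrbp2 and Rad17 swap order between regions, Arsj, Cpne9, Cpne2 and Cpne7 are apart in hippocampus and overlap in cerebellum, Alas2 and Gstt1 are apart in the same direction in both, and in Vgll3 and Ptgs2 a lone hippocampal array (mutant 4 at -0.03 and wild type 4 at -0.05) lies away from its group.

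Another kind of gene differed between genotypes mainly in hippocampus. Copines are calcium-dependent phospholipid-binding proteins that move to membranes when calcium rises. Of the 9 measured members, 3 were among the 24 genes named out of 18168, and none of these 3 passed the test of the regional difference. The copine list was chosen with earlier results of these data known, so this count is a description. Cpne2 had 0.29, 0.22, 0.55 and 0.17 in mutant hippocampus and -0.34, -0.17, -0.89 and -0.24 in wild-type hippocampus. Its cerebellar values were 0.0011, -0.04, -0.02 and 0.08 in mutants and 0.07, -0.0011, 0.20 and -0.11 in wild types. Mutants were above every wild type in hippocampus and overlapped them in cerebellum, giving effects of 0.71 and -0.03 and a regional difference of 0.75 (SE 0.18, interval 0.37 to 1.13, limma adjusted p = 0.87).

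Cpne7 went the same way, with 0.16, 0.26, 0.42 and 0.10 in mutant hippocampus and -0.46, -0.14, -0.58 and -0.13 in wild-type hippocampus. The cerebellar values were 0.01, 0.03, 0.05 and -0.09 in mutants and 0.04, 0.01, -0.16 and -0.06 in wild types, and there the genotypes overlapped. The regional difference was 0.53 (SE 0.13, interval 0.24 to 0.81, limma adjusted p = 0.87), at 0.73 and 0.32 for its 2 probe sets. On Cpne2 and Cpne7 alike, wild-type hippocampus array 3 was the lowest of all hippocampal arrays and mutant hippocampus array 3 the highest.

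Cpne9 lay the other way in hippocampus, at -0.25, -0.09, -0.19 and -0.27 in mutants and 0.61, 0.09, 0.53 and 0.43 in wild types. In cerebellum it was at 0.02, -0.03, 0.05 and -0.07 in mutants and -0.002, -0.19, 0.16 and 0.002 in wild types. Every hippocampal mutant was below every wild type and the cerebellar groups overlapped, with a regional difference of -0.61 (SE 0.13, interval -0.90 to -0.33, limma adjusted p = 0.72). Of the other copines, Cpne6 stood at 0.29, and Cpne1, Cpne3, Cpne4, Cpne5 and Cpne8 lay between -0.12 and -0.01. Over the 9 members the median was -0.05, with 3 above 0, so the family had no shared direction.

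Arsj, which belongs to the arylsulfatase family, had the largest negative regional difference among the named genes. It stood at -0.50, -0.22, -0.20 and -0.18 in mutant hippocampus and 0.87, 0.34, 0.58 and 0.18 in wild-type hippocampus. In cerebellum it stood at -0.03, 0.15, 0.03 and -0.11 in mutants and -0.08, -0.02, 0.02 and 0.02 in wild types. All mutants were below all wild types in hippocampus, the cerebellar groups overlapped, and the regional difference was -0.79 (SE 0.16, interval -1.13 to -0.45, limma adjusted p = 0.67). For the effect in hippocampus, with the spread taken from all 16 arrays, Arsj, Cpne9, Cpne2 and Cpne7 had limma adjusted p of 0.0571, 0.0571, 0.0826 and 0.0826. With the 8 hippocampal arrays fitted alone the smallest adjusted p of any gene was 0.644, with age as a covariate 0.105 and with replicate number as a block 0.126. Arsj and Cpne9 passed in hippocampus after quantile normalization (adjusted p = 0.00691 and 0.0366), all 4 passed when wild-type hippocampus array 2 was left out (adjusted p from 0.00129 to 0.0404), and Arsj and Cpne7 passed when wild-type hippocampus array 4 was (adjusted p = 0.00459 and 0.0467), while none of the 4 passed the test of the regional difference under any alternative.

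The remaining hippocampus-led genes named by the rule were Nkd2, a Dishevelled-binding regulator of Wnt signalling (regional difference 0.45, effects 0.42 in hippocampus and -0.03 in cerebellum), and Kcnip4, a partner of voltage-gated potassium channels (-0.40, effects -0.33 and 0.07). Both had the same direction on every probe set, from 0.25 to 0.56 over the 4 of Nkd2 and from -0.43 to -0.36 over the 3 of Kcnip4. Zmynd10, needed to assemble the dynein arms of motile cilia, stood at 0.53, with effects of 0.36 in hippocampus and -0.17 in cerebellum. The genotypes were apart in hippocampus and overlapped in cerebellum for all 3. Kmo, the kynurenine 3-monooxygenase of the outer mitochondrial membrane, had a regional difference of 0.39 and was apart in cerebellum only, where mutants had -0.13, -0.04, -0.02 and -0.07 and wild types 0.10, 0.07, 0.09 and 0.02.

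The effect was the larger one in cerebellum for 3 of the 12 genes with a positive regional difference and for 2 of the 12 with a negative one. In 5430427O19Rik the effect was -0.04 in hippocampus and 0.33 in cerebellum, with cerebellar values of 0.05, 0.35, 0.20 and 0.17 in mutants and -0.19, -0.05, -0.22 and -0.08 in wild types. Those groups did not overlap, and the regional difference was -0.37 (SE 0.09, limma adjusted p = 0.87). Leo1, a subunit of the Paf1 complex that travels with RNA polymerase II, had 0.12, 0.13, 0.09 and 0.06 in mutant cerebellum and -0.06, -0.13, -0.11 and -0.24 in wild-type cerebellum. In hippocampus it had 0.0026, -0.06, -0.0026 and -0.15 in mutants and 0.15, 0.14, 0.11 and -0.01 in wild types. The cerebellar groups were apart and the hippocampal ones overlapped, with effects of -0.15 in hippocampus and 0.24 in cerebellum and a regional difference of -0.38 (SE 0.08, interval -0.55 to -0.22, limma adjusted p = 0.67). The other named genes were BC024139 (0.37), the UBX domain gene Ubxn11 (0.35), Ccdc71l (-0.45), the orphan receptor Gpr22 (-0.41) and Dbr1, which opens the lariats left by splicing (-0.45). Without the 4 arrays with shifted markers of neighbouring tissue, which were mutant hippocampus 1 and 4, wild-type hippocampus 1 and mutant cerebellum 4, Dbr1 stood at -0.25 and Ubxn11 at 0.23.

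**Figure D3:**
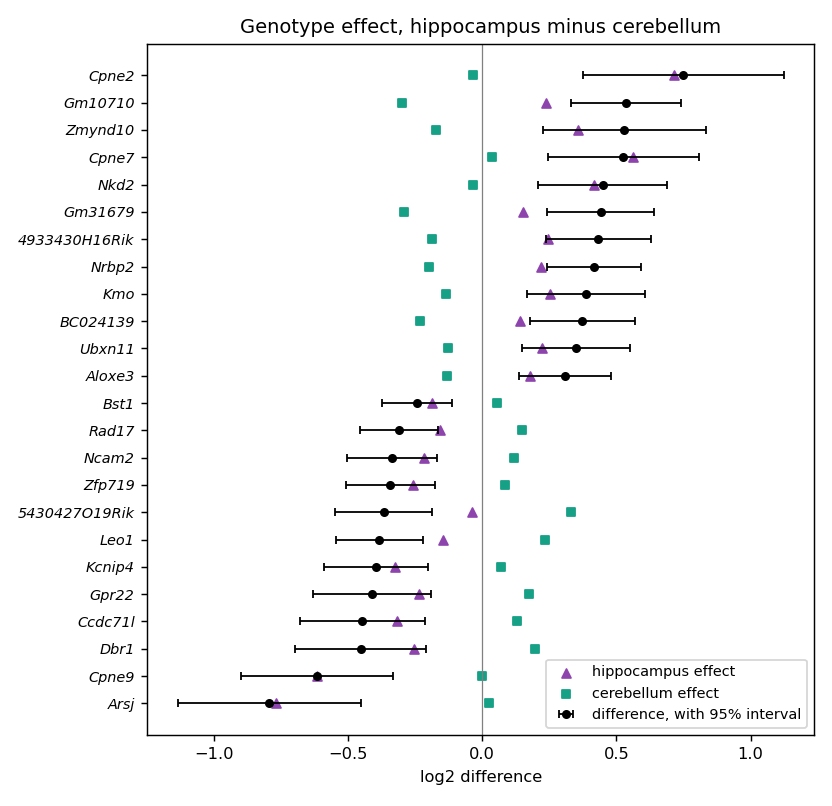
The 24 genes named for the regional difference, with the genotype effect in hippocampus (triangles) and in cerebellum (squares) and the hippocampal minus the cerebellar effect (dots) with its 95% interval, all in log2 units on the x axis. The intervals of single genes do not reach 0, but none of the 24 passed after adjustment over 18168 genes (adjusted p from 0.671 to 0.867).

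For a pair of genes the regional difference passed only in fits that left out a lone discordant array. Both are described here for that reason, so those small adjusted p-values follow from the choice and are a description. Vgll3 was picked out after its values were seen, and Ptgs2 was also named by the rule, as a member of the immediate early gene list. Vgll3, a cofactor of the TEAD transcription factors, had 1.19, 1.11, 1.80 and -0.03 in mutant hippocampus and -0.03, -0.48, -0.49 and -0.16 in wild-type hippocampus. All 8 cerebellar arrays lay between -0.03 and 0.12. Mutant hippocampus arrays 1 to 3 were far above all wild types and array 4 was level with them, giving a regional difference of 1.26 (SE 0.35, interval 0.52 to 1.99, limma adjusted p = 0.87). Without mutant hippocampus array 4 it was 1.61 (SE 0.19, limma adjusted p = 0.00535). That is the array with the raised choroid plexus markers, whose part in the result was not tested, and the 3 probe sets of Vgll3 gave 0.77, 1.28 and 1.72.

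Ptgs2, the inducible prostaglandin synthase known as COX-2 and an activity-regulated gene in hippocampal neurons, had -0.04, -0.20, 0.02 and -0.17 in mutant hippocampus and 0.93, 0.57, 0.91 and -0.05 in wild-type hippocampus. Cerebellar arrays lay between -0.10 and 0.11. Wild-type hippocampus arrays 1 to 3 were above all mutants, and array 4 was among them, with a regional difference of -0.72 (SE 0.21, interval -1.17 to -0.27, limma adjusted p = 0.87). Without wild-type hippocampus array 4 it was -0.93 (SE 0.11, limma adjusted p = 0.0094).

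Gene lists were described by counts and medians beside those of all genes, of which 54.9% lay above 0. Of the 24 genes for maintenance of mitochondrial DNA, 4 had a regional difference above 0 (16.7%), the median was -0.05, and 0 had an unadjusted p under 0.05. In hippocampus 12 of the 24 lay higher in mutants, as 58.9% of all genes did, and the median effect was 0.0041. In cerebellum 20 did, against 53.6% of all genes, and the median was 0.07. Tfam, which packages mitochondrial DNA and starts its transcription, had a regional difference of -0.15 (interval -0.32 to 0.03), and Mterf3, a repressor of mitochondrial transcription, -0.13 (-0.28 to 0.02). On the 4 mutant cerebellum arrays the mean over the list was -0.04, 0.07, -0.01 and 0.14, highest on the pair with high poly-A controls, and without this pair the median regional difference was 0.0083.

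The mitochondrial ribosome likewise had a median regional difference below 0. Of 73 measured genes 23 lay above 0 (31.5%), the median was -0.03, and 3 had an unadjusted p under 0.05, all below 0 and among them Mrpl32 (-0.22) and Mrpl18 (-0.20), both of the large subunit. Mutants lay higher for 63 of the 73 genes in hippocampus (median effect 0.04), against 58.9% of all genes. In cerebellum they lay higher for 67 (0.08), against 53.6% of all genes. Unlike the maintenance list, these genes thus lay mostly higher in mutants in both regions, counted over genes, which are not independent replicates. The list means of the genotypes overlapped in both regions. They were -0.04, 0.0003, 0.05 and 0.09 in mutant hippocampus and -0.05, -0.02, -0.01 and -0.01 in wild-type hippocampus. In cerebellum they were -0.02, 0.10, -0.01 and 0.08 in mutants and 0.04, -0.12, -0.02 and -0.05 in wild types. The highest mutant cerebellum arrays were again the pair high in poly-A controls. Without the mutant cerebellum arrays high in poly-A controls the median regional difference was 0.03, on the other side of 0. For complex I, 13 of 33 subunits lay above 0 (median -0.01), with Ndufb4 at -0.23 and Ndufs3 at 0.13. For complexes II to V, 23 of 37 did (median 0.02), with the cytochrome oxidase subunit Cox7c at -0.32 and the ATP synthase subunit Atp5d at 0.20, the only members with an unadjusted p under 0.05.

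The stress response to mitochondrial dysfunction, known from muscle of mice with this kind of mutation for its amino acid and one-carbon enzymes, had 12 of 24 genes above 0 and a median of -0.01. Slc7a3, a transporter of arginine and lysine, had 0.17, 0.40, 0.78 and 0.05 in mutant hippocampus and -0.30, -0.05, -0.52 and -0.09 in wild-type hippocampus. Its cerebellar values were 0.02, 0.27, -0.02 and -0.07 in mutants and 0.17, 0.08, -0.05 and -0.10 in wild types. The hippocampal groups were apart and the cerebellar ones overlapped, with a regional difference of 0.56 (SE 0.19, limma adjusted p = 0.87). Cth, the cystathionine gamma-lyase that makes cysteine, stood at 0.36, and these were the list's 2 genes with an unadjusted p under 0.05.

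Mitochondrial chaperones and proteases had 8 of 16 genes above 0 (median -0.0043), with the mitochondrial Hsp70 Hspa9 at -0.15 and its exchange factor Grpel1 at -0.13. The tricarboxylic acid cycle had 7 of 17 (median -0.02), with Dld at -0.11 (probe sets -0.20 and -0.03) and Idh3b at -0.13 (-0.07, -0.01 and -0.31). Fatty acid oxidation had 9 of 18 (median 0.0003), with Hadha, the trifunctional protein subunit, at 0.20 and Acads at 0.15. Glycolysis had 11 of 15 (median 0.06), with the neuronal enolase Eno2 at 0.19 and the hexokinase Hk1 at 0.18, both near 0 in hippocampus and at -0.17 and -0.17 in cerebellum. The glycolysis median was 0.0168 without the arrays high in poly-A controls, 0.0174 after quantile normalization and 0.0256 without wild-type cerebellum array 3. Hadha was the lone gene of these 4 lists with an unadjusted p under 0.05.

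Immediate early genes, transcribed soon after a neuron fires, had the lowest median of the pathway lists. Of 25 genes 3 lay above 0 (12%), the median was -0.31, and 3 had an unadjusted p under 0.05, all below 0. The median effect was -0.26 in hippocampus and 0.03 in cerebellum. Ptgs2, described above, is a member and had the smallest p of the list, with a regional difference of -0.72. Egr3, an activity-induced transcription factor, had 0.0008, -0.07, -0.10 and -0.24 in mutant hippocampus and 0.77, 0.22, 0.31 and -0.05 in wild-type hippocampus, with a regional difference of -0.44 (SE 0.16, limma adjusted p = 0.87). The probe sets of Egr3 differed, at -0.81 and -0.07. Mean values over the list were 0.36, -0.26, 0.02 and -0.29 in mutant hippocampus and 0.16, 0.73, 0.43 and -0.34 in wild-type hippocampus. The spread within each genotype was as wide as the gap between them, and the median was -0.13 without wild-type hippocampus array 2 and -0.46 without wild-type hippocampus array 4.

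Synaptic vesicle and postsynaptic genes had 17 of 25 above 0 and a median of 0.04, with the vesicle proteins Sv2a at 0.16 and Rab3a at 0.14. Circadian clock genes had 8 of 17 above 0 and a median of -0.01, with the repressor Cry1 at -0.46, where wild-type hippocampus array 1 alone stood at 0.98, and the output factor Tef at 0.19. Haem synthesis had 4 of 8 above 0 and a median of -0.01, with Ppox at 0.17 and Alad at 0.12.

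**Figure D4:**
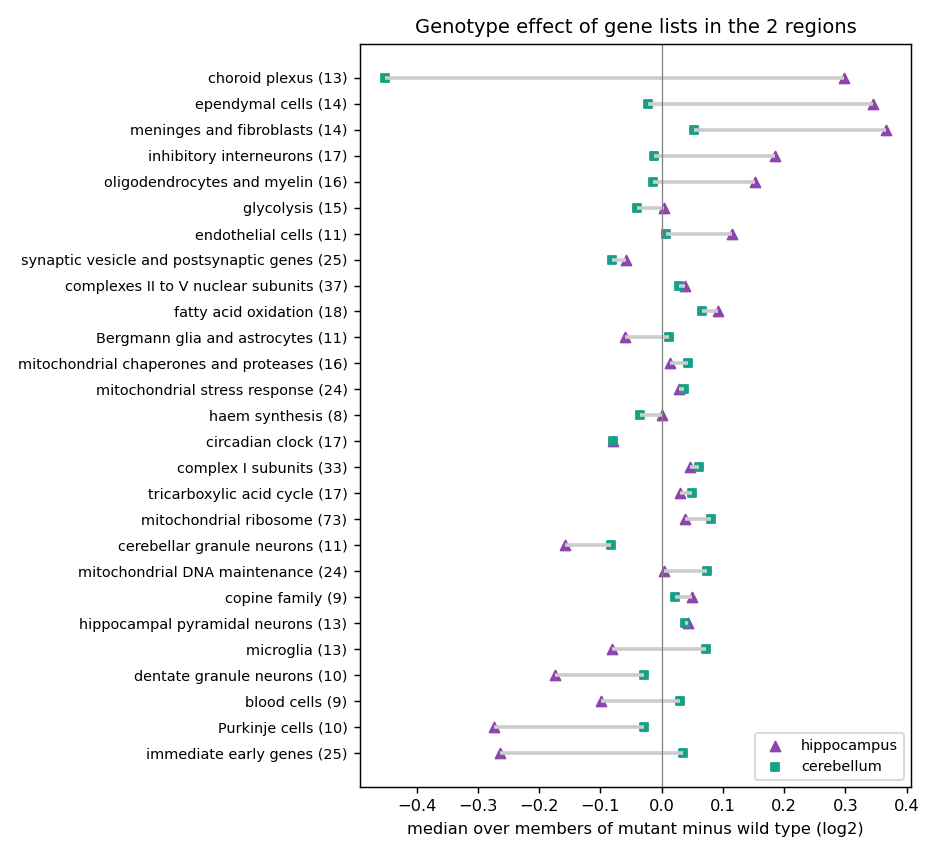
Median genotype effect, mutant minus wild type in log2 units (x axis), over the measured members (number in brackets) of 27 gene lists in hippocampus (triangles) and cerebellum (squares), ordered by the median regional difference. The mitochondrial and metabolic lists lie within 0.1 of 0 in both regions, while lists of choroid plexus, ependymal and meningeal markers and immediate early genes show the widest gaps.

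Of all lists, markers of choroid plexus (0.63) and ependymal cells (0.34) had the median regional differences furthest from 0. Immediate early genes came next (-0.31), and some lists of cell type markers lay near 0. In tissue RNA, fewer cells of a type and less RNA per cell cannot be told apart. Inhibitory interneurons had 14 of 17 markers above 0 (82.4%), a median of 0.19 and 4 with an unadjusted p under 0.05, all above 0. The median effect was 0.19 in hippocampus and -0.01 in cerebellum. Gad2, which makes the transmitter GABA, had 0.03, 0.01, 0.13 and 0.27 in mutant hippocampus and 0.03, -0.12, -0.15 and -0.05 in wild-type hippocampus, and the regional difference was 0.29 (SE 0.09, interval 0.09 to 0.48, limma adjusted p = 0.87).

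Dlx5, a transcription factor of developing interneurons, stood at 0.54 (SE 0.16, limma adjusted p = 0.87), with effects of 0.28 in hippocampus and -0.26 in cerebellum. The members were not uniform. Npy and Pvalb, which mark 2 of the interneuron classes and were picked out after their values were seen, lay below 0 at -0.50 and -0.20. The mean over the list was 0.07, 0.04, 0.13 and 0.08 in mutant hippocampus and 0.15, -0.05, -0.29 and -0.05 in wild-type hippocampus, where array 1 was above all mutants and arrays 2 to 4 below them. Over the alternatives the median stayed between 0.13 and 0.24.

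Ependymal cells line the ventricles and carry motile cilia. Of their 14 markers 13 lay above 0 (92.9%), the median was 0.34, and 4 had an unadjusted p under 0.05, all above 0. The median effect was 0.34 in hippocampus and -0.02 in cerebellum. Tmem212, a marker of multiciliated cells, had 0.01, 0.47, 0.94 and 0.93 in mutant hippocampus and -0.90, -0.19, -0.01 and -0.80 in wild-type hippocampus. The cerebellar values were 0.11, 0.21, -0.04 and -0.78 in mutants and 0.60, -0.24, -0.09 and 0.04 in wild types, where they overlapped, and the regional difference was 1.26 (SE 0.37, interval 0.48 to 2.04, limma adjusted p = 0.87). All hippocampal mutants were above all hippocampal wild types, and array 1 was the lowest within each genotype. Meig1 stood at 0.39 (SE 0.12) and was also apart in hippocampus. Mean values over the list were -0.05, 0.24, 0.43 and 0.49 in mutant hippocampus, -0.26, -0.05, -0.0012 and -0.20 in wild-type hippocampus, 0.08, 0.22, -0.0046 and -0.32 in mutant cerebellum and 0.20, -0.08, -0.07 and -0.01 in wild-type cerebellum, with mutant hippocampus array 1 among the wild types.

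Choroid plexus markers had the highest median of all lists. All 13 lay above 0 (100%), the median was 0.63, and 0 had an unadjusted p under 0.05. Mean values over the list were -0.24, -0.37, 0.24 and 2.08 in mutant hippocampus and 0.83, 0.36, -0.33 and -0.45 in wild-type hippocampus. In cerebellum they were -0.10, 0.13, 0.08 and -1.40 in mutants and 0.70, -0.45, -0.09 and 0.30 in wild types. Array 4 was the extreme mutant in both regions, high in hippocampus and low in cerebellum, and the other mutants lay within the range of wild types. Kl, the klotho protein, stood at 0.54 (interval -0.18 to 1.25) and the tight junction protein Cldn2 at 0.57 (-0.26 to 1.40). Their probe sets differed, at 1.06 and 0.01 for Kl and at 0.96 and 0.185 for Cldn2. Without mutant hippocampus array 4 the median was 0.25. Without the 4 arrays with shifted markers of neighbouring tissue the median of the choroid plexus list was 0.20 and that of the ependymal list 0.33. Over the alternatives the ependymal median ran from 0.22 with age as a covariate to 0.47 without mutant hippocampus array 1.

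**Figure D5:**
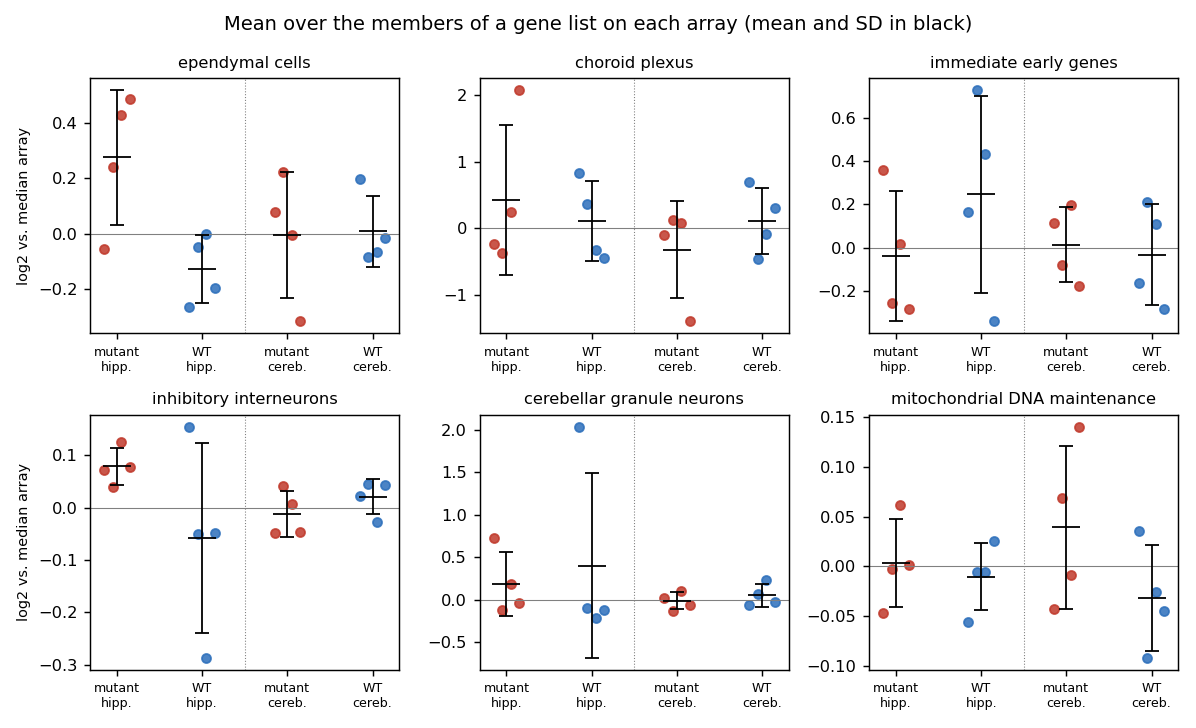
Mean over the measured members of 6 gene lists on each array (y axis, log2 relative to the median array of the region) for mutant and wild-type (WT) hippocampus and mutant and wild-type cerebellum; points are arrays in order of replicate number, long bars are means and capped bars SD (n = 4). Mutant hippocampus array 4 (2.08) and mutant cerebellum array 4 (-1.40) stand apart for choroid plexus markers, and wild-type hippocampus array 1 (2.03) for markers of cerebellar granule neurons.

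Meninges and fibroblasts had all 14 markers above 0, a median of 0.28 and 1 with an unadjusted p under 0.05. That was Dcn, the matrix proteoglycan decorin, with 0.44, 0.24, 0.52 and 0.01 in mutant hippocampus and -0.43, -0.09, -0.58 and -0.21 in wild-type hippocampus, groups that did not overlap, and a regional difference of 0.58 (SE 0.16, interval 0.24 to 0.91, limma adjusted p = 0.87). The probe sets of Dcn differed, at 0.98 and 0.17. Igfbp2, an insulin-like growth factor binding protein, stood at 0.87 and was highest on mutant hippocampus arrays 1 and 4, both at 1.05. Without mutant hippocampus array 1 the median of the list was 0.02. Oligodendrocyte and myelin genes had 15 of 16 above 0 (93.8%) and a median of 0.19, with the myelin lipid hydroxylase Fa2h at 0.32 and Ndrg1 at 0.34, the lone gene with an unadjusted p under 0.05, and the median was 0.02 without the 4 arrays.

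Microglial markers lay the other way, with 1 of 13 above 0 (7.69%) and a median of -0.16. Effects were -0.08 in hippocampus and 0.07 in cerebellum by median. Aif1, known as Iba1, had 0.0007, 0.27, 0.02 and 0.0002 in mutant cerebellum and -0.0002, -0.18, -0.32 and -0.16 in wild-type cerebellum, groups that did not overlap, and -0.15, 0.07, -0.05 and -0.0048 in mutant hippocampus and 0.19, 0.04, -0.05 and 0.0048 in wild-type hippocampus, groups that did. The regional difference of Aif1 was -0.32 (SE 0.11, limma adjusted p = 0.87), that of the integrin Itgam -0.24. Without wild-type hippocampus array 1, where the markers averaged 0.35, the median was -0.04, and without mutant cerebellum array 2 it was -0.06.

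Among neurons, dentate granule markers had 3 of 10 above 0 and a median of -0.17, which was -0.0997 without wild-type hippocampus array 3, -0.1005 without mutant hippocampus array 4 and -0.0968 with array weights. Lct stood at -0.54, with wild-type hippocampus array 3 alone at 1.17, and Prox1, the transcription factor that defines these cells, at -0.20 (interval -0.53 to 0.14). Pyramidal neuron markers had 5 of 13 above 0 and a median of -0.06. This median ran from -0.21 without wild-type hippocampus array 1 to 0.06 without wild-type hippocampus array 3. The calmodulin-binding Pcp4 stood at -0.30 and the adhesion protein Amigo2 at 0.21 (probe sets 0.35 and 0.06). Markers of cerebellar granule neurons had 4 of 11 above 0 and a median of -0.04, with Pax6 at -0.24 and Neurod1 at -0.49, and the median was 0.30 without wild-type hippocampus array 1, where Neurod1 stood at 1.34. Purkinje cell markers had 2 of 10 above 0 and a median of -0.22, with Stac at -0.33 and Rgs8 at -0.33, and 0.07 without the same array, where the list averaged 1.27.

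Bergmann glia and astrocytes had 5 of 11 above 0 and a median of -0.0022, which was 0.13 without wild-type hippocampus array 1. Hopx, a homeodomain-only protein of astrocytes, had 0.09, 0.21, 0.16 and 0.06 in mutant hippocampus and -0.06, -0.09, -0.09 and -0.08 in wild-type hippocampus, all mutants being above all wild types, and a regional difference of 0.19 (SE 0.07, limma adjusted p = 0.87). The glutamate transporter Slc1a3 stood at 0.15. Endothelial markers had 7 of 11 above 0 and a median of 0.05, with the vascular cadherin Cdh5 at 0.14 and the blood-brain barrier pump Abcb1a at -0.23. Blood cell markers had 3 of 9 above 0 and a median of -0.21, which was -0.02 without wild-type hippocampus array 3, with the T cell gene Cd3e at 0.18 and the leukocyte gene Ptprc at -0.30.

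The average of the 2 regional effects was also tested, although an average can rest on 1 region alone. It was fitted on the mean of the hippocampal and cerebellar array of the same number, so that each such pair counted as 1 unit, and with 16 separate arrays the smallest adjusted p was 0.167. The average passed the test in 0 of 18168 genes, with a smallest limma adjusted p of 0.511 and an unadjusted p under 0.05 for 1546 genes (8.51%). The genes named for it were the 6 of smallest p in each direction. Among the 6 with a positive average the interval of the regional difference held 0 for 3, and among the 6 with a negative average for 4.

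Alas2, which makes the first compound of haem synthesis in red cell precursors, had the largest average effect among the named genes. Its values were -0.27, -0.33, -0.29 and -0.66 in mutant hippocampus and 0.37, 0.27, 1.54 and 1.02 in wild-type hippocampus. In cerebellum they were -0.34, -0.25, -0.19 and -0.20 in mutants and 0.47, 0.19, 1.25 and 0.98 in wild types. All mutants were below all wild types in both regions, and wild types 3 and 4 were the highest in both. The average effect was -1.08 (SE 0.21, interval -1.54 to -0.61, limma adjusted p = 0.511), and the regional difference was -0.22 with an interval of -0.95 to 0.50. The list of blood cell markers includes Alas2 itself. It averaged 0.67 on wild-type hippocampus array 3 (Alas2 at 1.54) and 0.06 on wild-type hippocampus array 4 (Alas2 at 1.02). On wild-type cerebellum arrays 3 and 4 the list averaged 0.08 and 0.07, with Alas2 at 1.25 and 0.98. The part of blood cells in the result was not tested.

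Gstt1, a glutathione transferase, had 0.31, 0.02, 0.16 and 0.23 in mutant hippocampus and -0.13, -0.02, -0.24 and -0.10 in wild-type hippocampus. In cerebellum it had 0.01, 0.27, 0.05 and 0.06 in mutants and -0.01, -0.23, -0.08 and -0.06 in wild types. Mutants were above wild types in both regions without overlap, with an average effect of 0.25 (SE 0.04, limma adjusted p = 0.511) and a regional difference of 0.11 (interval -0.11 to 0.33). Dnajb13, a protein of ciliary radial spokes, averaged 0.22 with effects of 0.19 in hippocampus and 0.24 in cerebellum. Gdap10 averaged -0.25, with -0.26 in hippocampus and -0.24 in cerebellum.

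Other genes named for the average drew it mainly from hippocampus. The ependymal genes Ak7 and Ccdc153 averaged 0.40 and 0.34, with effects of 0.65 and 0.70 in hippocampus and 0.15 and -0.02 in cerebellum. The glucocorticoid-induced kinase Sgk1 averaged -0.21 (-0.31 in hippocampus and -0.11 in cerebellum), and Gtsf1, a factor of the piRNA pathway, 0.22 (0.31 and 0.13). The 2 probe sets of Gtsf1 differed, at 0.46 and 0.17 in hippocampus and at 0.26 and -0.0013 in cerebellum. Cpne2 and Arsj, described above, also belonged here at 0.34 and -0.37. Gm15527 (-0.39) and Jmjd1c (-0.24), a histone demethylase family member, had effects of similar size in both regions with overlapping genotypes.

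Of the 15 genes apart in the same order in both regions, 10 lay higher in mutants, and the interval of the regional difference held 0 for all 15, with differences from -0.22 to 0.12. Selecting genes apart in the same order in both regions leaves little room for a regional difference, so this is a description. Besides Alas2, Gstt1, Dnajb13 and Gdap10 they were picked out after their values were seen. They include Micos13, a subunit of the complex that shapes mitochondrial cristae (effects 0.07 in hippocampus and 0.07 in cerebellum), Uros, a haem synthesis enzyme (0.16 and 0.09), the neuronal pentraxin Nptx1 (-0.21 and -0.15) and Eef2k, the kinase that slows translation elongation (-0.13 and -0.11). The other 7 were 4930524B17Rik, Erich3, Fam241a, Pigq, Ppp1r42, Thumpd2 and Zcchc14.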

How the data were processed

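Per the labels' protocols, Trizol-extracted total RNA (5 ug) served to make biotinylated cRNA for Affymetrix arrays. The submitters' processing notes name GCOS 4.0. How probes were summarised and arrays normalized and centred is not given in the sources used here. The authors deposited log values, taken as log2, without stating the base. The widest probe set spanned 8.91 units within a region, more than the 4.82 decades a 16-bit scanner covers, so base 10 does not apply, and if the base were e each difference would have to be multiplied by 1.44. In each region 99.9% of probe sets had a median within 1e-05 of 0 over its 8 arrays, so no expression level, and no filter on dim probe sets, could be used.

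Of 45101 probe sets, 64 controls and 133 with an empty value were left out. Genes were named through the GEO platform annotation, in which 34843 probe sets had 1 symbol, 931 more than 1 and 9130 none. The mean of the probe sets with 1 symbol gave 18168 genes, 9192 of them with 1 probe set. An identifier match to RefSeq was found for 18008.

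limma 3.58.1 in R 4.3.3 fitted 16 arrays with a mean per group (12 residual degrees of freedom), giving each regional genotype effect and their difference. The average over regions was fitted on 8 means, 1 per genotype and number. All tests were two-sided, p-values were adjusted by Benjamini-Hochberg over the 18168 genes, and the threshold was 0.05. Precision is limited by how many arrays there were. The fit was tested on simulated data. The genes named by rule were Twnk, then by smallest p 12 genes above and 12 below 0 for the difference, 6 above and 6 below 0 for the average, and 2 members of each list; any other gene is said to be picked out after its values were seen. The members and the 27 gene lists were chosen with earlier results of these data known. Alternatives were quantile normalization, the median of probe sets, array weights, age as a covariate, a replicate block, robust empirical Bayes, each probe set or region fitted on its own, and leaving out arrays.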

Additional observations from a re-analysis of the deposited data

Results flagged for a closer look

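A lone array was marked where its gap to the nearest array of the same group exceeded, as a share of the group's range, Dixon's 95% critical value. This was checked in 528 groups of 4 values, of single genes named in the text and of list means, and 39 were marked. Chance marks about 1 in 20 groups. No explanation was weighed.

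Wild-type hippocampus array 1 was marked 7 times. It was far above the others in mean for cerebellar granule neurons (2.03) and Purkinje cells (1.27) and in Neurod1 (1.34), and below them in mean for pyramidal neurons (-0.51) and in Uros (-0.32), Micos13 (-0.10) and Gpr22 (-0.049). Mutant hippocampus array 1 stood out in mean for meninges and fibroblasts (1.00) and Purkinje cells (0.29) and in Arsj (-0.50). The choroid plexus mean of mutant cerebellum array 4 was -1.40, and its copine mean was -0.0395.

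Mutant cerebellum array 2, which is high in poly-A controls, was marked 6 times, in mean for meninges and fibroblasts (0.28), the mitochondrial stress response (0.0923) and dentate granule neurons (-0.037), and in Aif1 (0.27), Meig1 (0.15) and Aloxe3 (-0.22). Wild-type cerebellum array 3, the array with 77 empty values, was also marked 6 times, in Ndrg1 (0.30), Nptx1 (0.19), Acads (0.18), Uros (-0.19), Ppp1r42 (-0.13) and Sgk1 (-0.018). Wild-type cerebellum array 2 was marked in Twnk (-0.15), Fam241a (-0.36) and Hopx (-0.0945) and in mean for pyramidal neurons (-0.0285).

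Among the other hippocampal arrays, mutant array 2 stood out in 4930524B17Rik (0.30), Psmc5 (-0.0705) and the synaptic mean (0.0254), mutant array 3 in Bst1 (-0.13) and mutant array 4 in Alas2 (-0.66). Wild-type hippocampus array 3 stood out in the blood cell mean (0.67) and Cdh5 (-0.16), and wild-type hippocampus array 4 in Atp5d (0.02) and Nudc (-0.0016). In cerebellum, mutant array 3 was marked in Ptprc (-0.0838) and wild-type array 4 in Ptgs2 (-0.10).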

How the results depend on the processing

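The count of genes called for the regional difference was 0 under the alternatives run, except 1 (Vgll3) without mutant hippocampus array 4 and again without the 4 arrays with shifted markers of neighbouring tissue, and 1 (Ptgs2) without wild-type hippocampus array 4, so leaving out 1 array gave 0 to 1. In hippocampus the count was 2 after quantile normalization (Arsj and Cpne9), 1 without the 4 arrays (Vgll3) and 0 to 7 when 1 array was left out, with 7 without wild-type array 2. In cerebellum it was 0 throughout. The average over regions called 3 genes without the 4 arrays (Vgll3, Cd24a and Dynlrb2) and 1 probe set when each was tested on its own. The regional difference of Twnk, which is close to 0, changed sign: it was -0.0157 after quantile normalization, -0.0078 with array weights, -0.0389 without the 4 arrays, -0.028 without the arrays high in poly-A controls, and -0.0178 to 0.0377 when 1 array was left out. None of the 24 other named genes changed sign or passed, and 10 of the 27 list medians moved by more than the spread between replicates under 1 alternative or more. The cause of these changes was not tested.

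Genes with an unadjusted p under 0.05 numbered 538 for the regional difference without the arrays high in poly-A controls and 596 without the 4 arrays, against 972 with all arrays. In cerebellum they numbered 1801 with age as a covariate, 587 without the arrays high in poly-A controls and, among the fits without 1 array, 541 without mutant array 2, 1512 without mutant array 3 and 1498 without wild-type array 1, against 979. In hippocampus they numbered 861 without the 4 arrays, against 1459, and for the average 920 without the arrays high in poly-A controls, against 1546.

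A replicate block changed no call: with replicate number as a term 0 genes were called (smallest limma adjusted p = 0.704), as with 8 differences by genotype and number (0.817), and the average without the block also called 0 (0.167). Same-numbered arrays of both regions correlated at -0.175 to 0.167 in their deviations from the group means. Such values cannot show whether these arrays share an animal, and ages matched by genotype and number across regions. As sharing is not recorded, the tests of the regional difference and of each region did not pair the samples by number. The average alone joins same-numbered arrays, as fitted, and its adjusted p-values rest on that. Signal over background could not be assessed, because no expression level is left.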

Other observations

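Probe sets without a single gene symbol numbered 10061 and are not part of the gene-level results. The regional difference among them with the smallest p above 0 was 0.39 for 1432299_at, with values of 0.14, 0.23, 0.05 and 0.08 in mutant hippocampus and -0.20, -0.26, -0.13 and -0.05 in wild-type hippocampus. The one with the smallest p below 0 was -0.51 for 1422135_at, with effects of -0.24 in hippocampus and 0.27 in cerebellum. With each probe set tested on its own, neither passed (limma adjusted p = 0.905 for both).

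The probe set 1446065_at was picked out after its values were seen, as the one called for the average over regions when each was tested on its own. Its average effect was -0.60 (SE 0.06, limma adjusted p = 0.0163). This SE and p rest on averaging same-numbered arrays of the 2 regions, which are not recorded as sharing an animal. Within such a pair the values could lie far apart, as for mutant 4 and wild type 1. Values were -0.08, -0.39, -0.01 and -0.90 in mutant hippocampus and 1.14, 0.01, 0.49 and 0.17 in wild-type hippocampus. In cerebellum they were -0.17, -0.36, -0.50 and 0.32 in mutants and -0.36, 0.70, 0.17 and 0.40 in wild types. The genotypes were apart in hippocampus and overlapped in cerebellum, and the regional difference was -0.39 (SE 0.37).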
